A study of Mus musculus with 5 samples.

Results

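The Hox genes of the mouse, the homeobox genes of the Hoxa, Hoxb, Hoxc and Hoxd clusters, were described in RNA of embryonic stem cells. Members were all symbols in the deposited table made of "Hox", a cluster letter and a paralogue number, without their bin suffix. This gave 38 genes of the 24538 gene names and assembly IDs in the table, or 38 of the 39 mouse Hox genes. Hoxb9 had no row under its symbol and was not analysed here. Polyadenylated RNA had been sequenced from 3 libraries labelled wildtype (wildtype 1 to 3) and 2 labelled as deleted for the −45 super-enhancer (deleted 1 and 2), a cluster of enhancers near the pluripotency gene Nanog. All libraries came from murine embryonic stem cells with a treatment field that names 6 days of ethanol, the vehicle, or of tamoxifen (4OHT). The labels do not tie either agent to a library, nor do they name a strain, a clone or a Cre driver. They do not say whether replicates were separate cultures, so a p-value here covers just the library-to-library spread, possibly a technical one. Where the series text counts 3 replicates in each condition, any other deleted library is not analysed here.

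Hox genes encode homeodomain transcription factors that give cells of the embryo their position along the head-to-tail axis and, in the limb, along its length. Within a cluster the paralogue number follows the gene's place on the chromosome: low numbers are expressed early and anteriorly, high numbers late and posteriorly. In undifferentiated embryonic stem cells the clusters are classic targets of Polycomb repression, and retinoic acid, Wnt signals and Cdx factors induce them during differentiation. HOX proteins bind DNA with cofactors of the TALE family, among them PBX and MEIS proteins.

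Values were counts per exon bin, summed per gene, and are given as counts or as CPM, the count scaled so that every library sums to the same total. Library totals were 114838600 to 213042746 in wildtype and 93574609 and 99134363 in deleted cells, so that 3 counts, taken as the floor of detection, stood for 0.0141 to 0.0321 CPM. Symbol rows held only 0.328% to 0.375% of each library's counts, the rest being under assembly IDs (MSTRG plus a number) that the table does not pair with symbols. Reads of a Hox gene may therefore be divided with an ID, and a low value here is a low value under the symbol. Nanog and all 9 embryonic stem cell markers looked for, such as Pou5f1 and Sox2, had no symbol row, so neither the deletion nor the cell type was checked in this way. Wildtype 3, the deepest library, differed from wildtype 1 and 2 in genes of over 40 bins, with a median of 0.35 on the log2 scale. In the tested Hox genes, which have 2 to 5 bins, that median was −0.08. The median does not stand for each member: Hoxc13 had 0.573 CPM in wildtype 3 against 0.471 and 0.427 in wildtype 1 and 2. For pairs of replicates the tested genes gave a chi-square of 9.96 to 93.4 per degree of freedom. Over Hox genes with at least 10 counts in a pair of libraries, chi-square per gene was 0.84 to 1.43, near the value of 1 that counting error alone gives. Spread beyond counting error raises chi-square less at low counts. Mean log2 CPM reached 14.5 in all tested genes and only 0.18 in tested Hox genes. The value near 1 therefore cannot show that Hox genes vary less between replicates.

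Hox transcripts were scarce. The 38 genes together held 509, 475 and 867 counts in wildtype 1, 2 and 3 and 408 and 467 counts in deleted 1 and 2. This was 4.09 ± 0.0396 CPM in wildtype (SD, n = 3) and 4.54 ± 0.248 CPM in deleted cells (SD, n = 2), and each deleted library lay above every wildtype one. Within this sum Hoxc13 alone had means of 0.490 and 0.793 CPM, so the sum does not stand for each member. Of all tested genes, 31.6% likewise had every deleted library above every wildtype one. The sum was not tested. Of the 38 genes, 14 had at least 3 counts in every library (36.8%), and the other 24 fell under 3 counts in some library. Hoxa6, one of these, had 0 counts in all 5. Together these 24 summed to 0.459 ± 0.0326 CPM in wildtype (SD, n = 3) and 0.446 ± 0.0112 CPM in deleted cells (SD, n = 2), and the groups overlapped. Over all 10855 symbols, 35.5% had at least 3 counts in every library, but 33.1% were at 0 throughout, against 2.63% of Hox genes. For Hoxa6, a count of 0 allows a level of up to 0.0141 to 0.0321 CPM, depending on the library. In a bulk sample, fewer cells that express a gene and less RNA per cell cannot be told apart.

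The counts were gathered in few members. Hoxd13, which shapes the digits, held 27.8% ± 1.09 of Hox counts in wildtype (SD, n = 3) and 23.9% ± 0.177 in deleted cells (SD, n = 2). Hoxc13, a regulator of hair and nail formation, held 12% ± 1.91 and 17.5% ± 0.214. Paralogue group 13 alone, with members in all 4 clusters, held 44.3% ± 0.622 and 43.8% ± 0.992. Group 6, with 3 members, held 6 counts over all 5 libraries, and group 2 held 24. By position, the 15 central genes (groups 4 to 8) summed to 508 counts and the 15 posterior genes (9 to 13) to 1577.

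**Figure D1:**
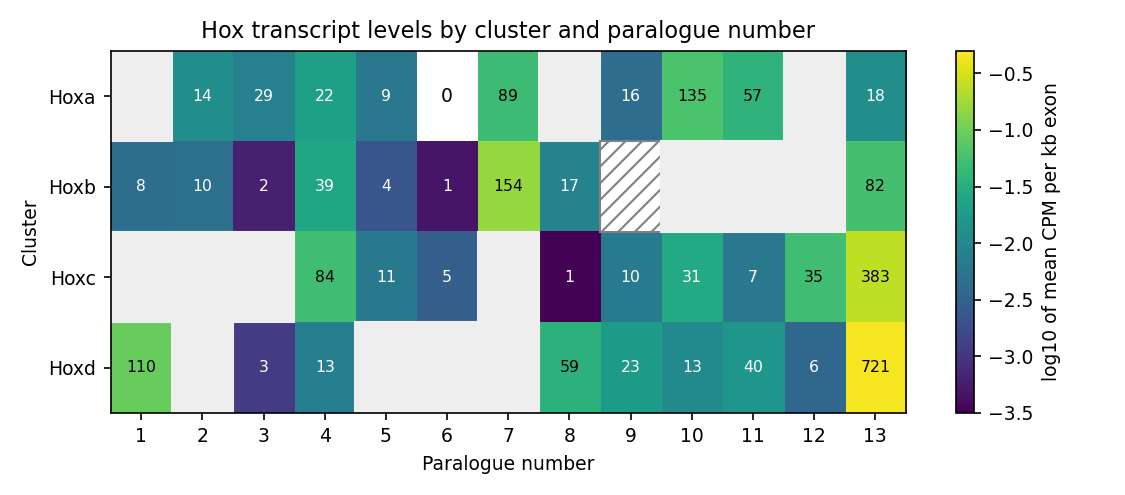
Map of the Hox genes by cluster (rows) and paralogue number (columns). Colour is log10 of the mean CPM per kb of exon over the 5 libraries, the number in each cell is the total count, light grey marks positions without a gene or not shown, white with a 0 marks Hoxa6 and hatching marks Hoxb9, which had no row. Hoxd13 (721 counts) and Hoxc13 (383) stand out at the posterior end.

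Levels of different genes were compared per kb of annotated exon (GENCODE vM21 lengths). Hoxd13 came first with 0.449 CPM per kb over the 5 libraries (0.422 to 0.484), and Hoxc13 had 0.248 (0.173 to 0.332). Every library's value for Hoxd13 lay above every value for Hoxc13. Hoxb7, expressed in the trunk, had 0.157 CPM per kb, and Hoxd1 had 0.0896. The ranges of Hoxc13 and Hoxb7 overlapped, whereas Hoxb7 lay above Hoxd1, and Hoxd1 above Hoxa10 at 0.0622 CPM per kb, in every library. From Hoxa10 downwards each gene's range over libraries met that of the next gene in the order. Among 10400 symbols with an exon length, Hoxd13 lay at percentile 95.5 and Hoxc13 at 89.8, while the median symbol had 0.00473 CPM per kb. These are ranks among symbol rows and not among all genes of the cells. Symbol rows held only 0.328% to 0.375% of each library's counts, and 33.1% of all 10855 were at 0. Hoxc8, Hoxb6 and Hoxb3, with 1, 1 and 2 counts in all, lay lowest among the members with any count. Hoxc12, at 0.0517 CPM per kb, rests on an annotated exon length of only 1031 bases.

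Neighbours in a cluster differed widely. On chromosome 2, Hoxd13 held 721 counts, while its neighbour Hoxd12 held 6 and stood at 0.00370 CPM per kb. Hoxd1, at the other end of that cluster, stood between them. The 250 bases upstream of the RefSeq start of these 3 genes (GRCm38.p6, plus strand) are shown because they lie beside the highest member, its low neighbour and the far end of the same cluster. Capitals mark CG dinucleotides, the sites of cytosine methylation and the hallmark of CpG islands, which Polycomb-bound Hox promoters carry. The windows are chr2:74667975-74668224 for Hoxd13, chr2:74674763-74675012 for Hoxd12 and chr2:74762730-74762979 for Hoxd1.
Hoxd13: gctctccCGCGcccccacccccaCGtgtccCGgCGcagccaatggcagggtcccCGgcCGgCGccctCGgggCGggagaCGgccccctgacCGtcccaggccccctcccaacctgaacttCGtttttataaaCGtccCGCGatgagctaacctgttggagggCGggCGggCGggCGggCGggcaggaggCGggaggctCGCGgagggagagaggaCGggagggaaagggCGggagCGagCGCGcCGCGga
Hoxd12: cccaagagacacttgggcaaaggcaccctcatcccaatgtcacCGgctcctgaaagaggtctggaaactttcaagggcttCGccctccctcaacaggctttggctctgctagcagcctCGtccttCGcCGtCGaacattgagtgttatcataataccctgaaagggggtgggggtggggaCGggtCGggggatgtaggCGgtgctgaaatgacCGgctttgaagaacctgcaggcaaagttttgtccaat
Hoxd1: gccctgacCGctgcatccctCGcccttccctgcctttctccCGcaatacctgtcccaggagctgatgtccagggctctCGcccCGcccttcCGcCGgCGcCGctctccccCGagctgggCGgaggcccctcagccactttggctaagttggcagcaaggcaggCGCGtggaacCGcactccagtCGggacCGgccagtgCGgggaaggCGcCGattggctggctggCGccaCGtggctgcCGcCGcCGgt
Hoxd13 had 31 CG dinucleotides in this window, Hoxd12 10 and Hoxd1 24. RefSeq promoter windows were found for 22 Hox genes (24 windows), with a median of 12.5 CG per 250 bases against 6 over all 32851 windows. In the 3 genes shown the number followed the order of RNA level, while some other genes departed from it. A relation over all Hox windows was not tested. Hoxa13 had 35 and Hoxa6, at 0 counts, 24, while Hoxa7, with 89 counts, had 7. Of 4 motifs searched on both strands, the half-site AGGTCA bound by nuclear receptors was in 6 of the 24 windows (25%) and in 14% of all windows. TGACAG, bound by MEIS proteins, was in 8.33% of Hox windows and 15.9% of all. TGATNNAT, bound by PBX and HOX proteins together, was in 16.7% and 7.68%, and the TATA box TATAAA in 16.7% and 12.4%. The windows holding AGGTCA belonged to Hoxb4, Hoxc4, Hoxd3, Hoxd4, Hoxd8 and Hoxd10. A match of letters is a description and not a site of binding.

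Exon bins gave a second view of the same counts. The 38 genes had 95 bins, 29 of the genes having 2, and 19 bins were at 0 in all libraries. In Hoxd13 and Hoxc13 both bins were counted in every library. Bin 2 of Hoxd13 held 71% of its counts and bin 2 of Hoxc13 73.9%. By contrast, bin 5 of Hoxd8 held 78% of its counts, and its 4 other bins together 13 counts. Hoxa3 had 3 of its 5 bins at 0 in every library. Exons of 16 of the 38 genes share bases with another annotated gene, 10 of them with one on the opposite strand, and strand use in the counting is not given in the sources used here. Among the tested genes described below, Hoxa7 shares bases with Hoxaas3 and Hoxa11 with Hoxa11os, so that their reads cannot be assigned to one strand. Hoxc13 and Hoxd13 share exon bases with no other annotated gene.

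The comparison asked how these genes differed between libraries labelled deleted and libraries labelled wildtype. The labels tie neither ethanol nor tamoxifen to a library and name no clone, and the deletion itself was not checked. The parts of the deletion, of tamoxifen and of a clone in any difference cannot be told apart here and were not tested. One Hox gene, Hoxc13, rose, none fell, and 10 did not pass the threshold. The test was edgeR's quasi-likelihood F test over all 16259 genes with enough counts, with Benjamini-Hochberg adjusted p under 0.05 as the threshold. It was open to 11 Hox genes, of which 9 had enough counts in wildtype alone and Hoxa11 and Hoxd8 only through the deleted libraries. The share called was 9.09% of the 11, beside 31.8% of 3591 tested symbols and 39.5% of all tested genes (19.9% higher and 19.6% lower). Of the 2457 symbols within the same range of mean level, 27.4% were called, 17.5% as higher and 9.89% as lower. With 11 genes, no difference is read from these shares.

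Hoxc13 had 59, 49 and 122 counts in wildtype 1, 2 and 3 and 72 and 81 counts in deleted 1 and 2. This was 0.471, 0.427 and 0.573 CPM against 0.769 and 0.817 CPM. Both deleted libraries lay above all 3 wildtype libraries, and the counting error of these counts was 9.05% to 14.3%. Means were 0.490 ± 0.0748 CPM in wildtype (SD, n = 3) and 0.793 ± 0.0337 CPM in deleted cells (SD, n = 2), and edgeR gave a log2 fold change of 0.68 with an SE of 0.18 (adjusted p = 0.0189). Log2 fold changes are given ± SE from here on. The 95% interval ran from 0.27 to 1.09 on the log2 scale, or from 1.20-fold to 2.13-fold. Both exon bins were higher in deleted cells, bin 1 at 0.222 ± 0.0423 against 0.112 ± 0.0603 CPM and bin 2 at 0.571 ± 0.00862 against 0.378 ± 0.0145 CPM. Leaving out wildtype 2 ended the call at a log2 fold change of 0.60 (edgeR adjusted p = 0.0507). So did leaving out deleted 1, at 0.72 (0.0800), or deleted 2, at 0.63 (0.107). With wildtype 3, the highest wildtype library, left out the value was 0.81 (edgeR adjusted p = 0.00684). A fit with the replicate number as a block leaves wildtype 3 alone in its block. It compares the same libraries as the fit without wildtype 3 and is no separate support. Over 13 alternatives the log2 fold change was 0.60 to 0.81 and passed in 10.

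**Figure D2:**
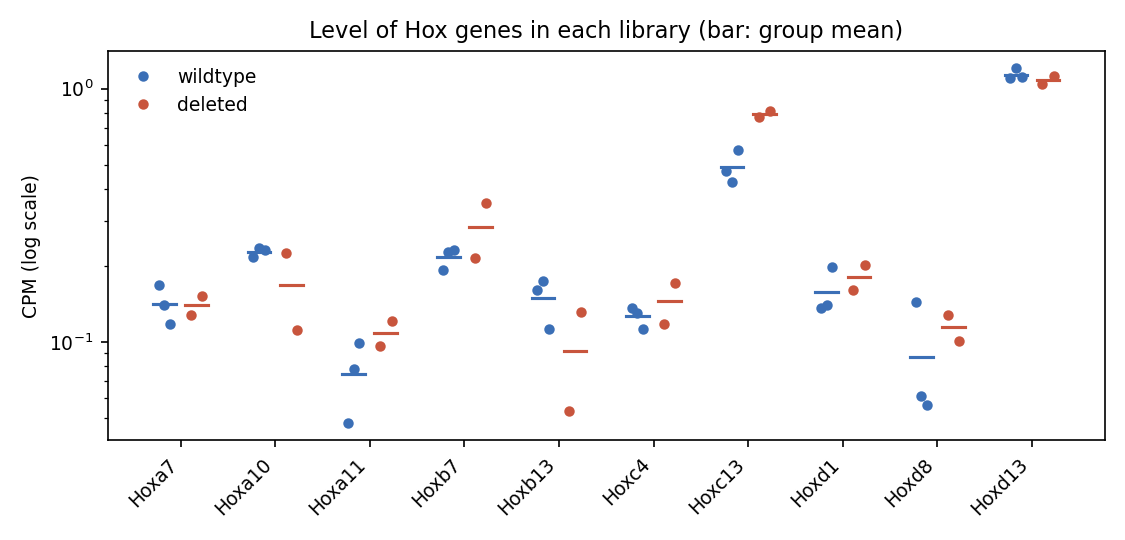
CPM of tested Hox genes (log axis) in each wildtype library (blue points) and each deleted library (red points), with the group mean as a bar. Both deleted libraries lie above all wildtype libraries for Hoxc13, and the groups overlap in the other genes shown.

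Of the other members of paralogue group 13, Hoxd13 was the most abundant and the most precisely measured Hox gene. It had 138, 138 and 236 counts in wildtype and 98 and 111 in deleted cells, or 1.10, 1.20 and 1.11 against 1.05 and 1.12 CPM. The groups overlapped, with means of 1.14 ± 0.0558 CPM (SD, n = 3) and 1.08 ± 0.0512 CPM (SD, n = 2). Their log2 fold change was −0.06 ± 0.13 (edgeR adjusted p = 0.740), and its 95% interval of −0.36 to 0.24 leaves room for changes of up to 0.778-fold or 1.18-fold. Hoxb13, a regulator of the tail and the prostate, had 20, 20 and 24 counts in wildtype and 5 and 13 in deleted cells. Deleted 1 lay below every wildtype library and deleted 2, at 0.131 CPM, above wildtype 3 at 0.113 CPM. Its log2 fold change of −0.61 ± 0.45 did not pass (edgeR adjusted p = 0.319), and it was −0.13 without deleted 1 and −1.41 without deleted 2. Hoxa13, required for limb and urogenital development, had only 1 to 6 counts per library. It was under the filter, and in a fit with no filter its log2 fold change was −0.61 ± 0.95 (edgeR adjusted p = 0.666). Within paralogue group 13, the interval of Hoxc13 lay above 0 and those of Hoxb13 and Hoxd13 held 0. A difference between the paralogues was not tested.

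In all, groups did not overlap in 18.2% of the 11 tested Hox genes, Hoxc13 included, each with deleted above wildtype. Groups did not overlap in 63.5% of all tested genes, in 56.8% of tested symbols (32.6% with deleted above) and in 54.2% of symbols within the Hox range of levels. The difference between these shares was not tested. The noncoding RNA Hotairm1 of the Hoxa cluster had 28, 21 and 36 counts in wildtype and 14 and 15 in deleted cells. By CPM, both deleted libraries (0.150 and 0.151) lay below all wildtype ones (0.224, 0.183 and 0.169), as in 24.3% of tested symbols. Its log2 fold change was −0.32 ± 0.29 (edgeR adjusted p = 0.426). Hoxd1, at the anterior end of the Hoxd cluster and with a known role in sensory neurons, had 0.136, 0.139 and 0.197 against 0.160 and 0.202 CPM. Its groups overlapped and its log2 fold change was 0.16 ± 0.31 (edgeR adjusted p = 0.709). Hoxb1, a hindbrain gene, had 0 to 5 counts per library.

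**Figure D3:**
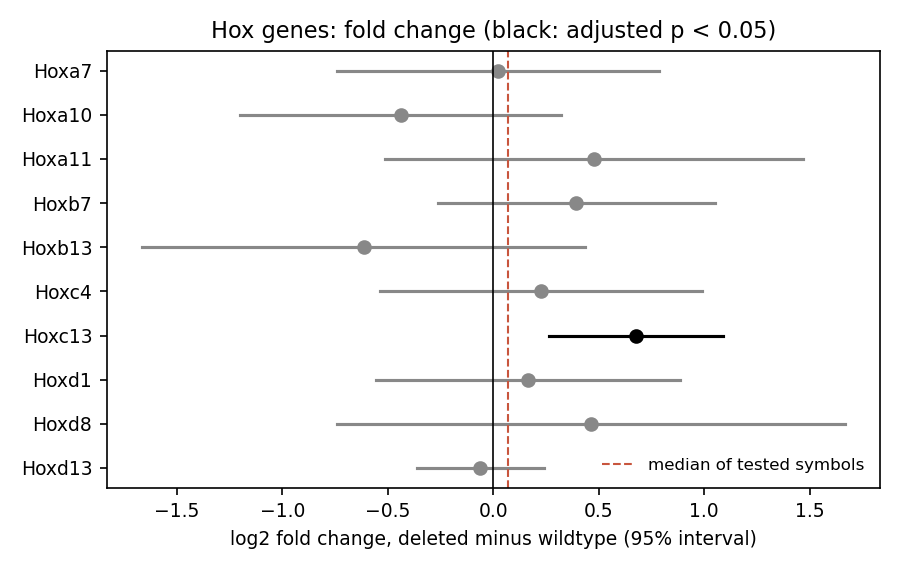
Log2 fold change (deleted minus wildtype, horizontal axis) of tested Hox genes with 95% intervals. The dashed line is the median of all tested symbols, 0.07. Hoxc13, in black, is the gene past the threshold, and the intervals of the other genes shown hold 0.

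The remaining tested members lay between these ends and had 6 to 49 counts per library. Hoxa10, which patterns the lumbar spine and the uterus, had 27, 27 and 49 counts in wildtype and 21 and 11 in deleted cells. Deleted 1, at 0.224 CPM, lay within the wildtype range of 0.216 to 0.235 CPM, and deleted 2, at 0.111 CPM, below it. The log2 fold change of −0.44 ± 0.33 (edgeR adjusted p = 0.327) shrank to −0.01 with deleted 2 left out and grew to −1.02 with deleted 1 left out, so its size rests on single libraries. Bin 2 of Hoxa10 had 7, 7 and 8 counts in wildtype and 1 in each deleted library, a pattern noticed after its values were seen and not tested. Hoxb7 had 0.192, 0.226 and 0.230 against 0.214 and 0.353 CPM. Only deleted 2 was above the wildtype range, and the log2 fold change was 0.39 ± 0.28 (edgeR adjusted p = 0.307). Without deleted 2 it was −0.021, and without deleted 1 it was 0.70.

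Hoxa7 and Hoxc4, central genes of the trunk and neck, were near one another in level. Hoxa7 had 0.168, 0.139 and 0.117 against 0.128 and 0.151 CPM, with full overlap and a log2 fold change of 0.02 ± 0.33 (edgeR adjusted p = 0.964). Hoxc4 had 0.136, 0.131 and 0.113 against 0.118 and 0.171 CPM and a log2 fold change of 0.23 ± 0.33 (edgeR adjusted p = 0.623). Their 95% intervals ran from −0.74 to 0.79 and from −0.54 to 0.99. Hoxa11, a gene of the forearm, shank and uterus, had 6, 9 and 21 counts in wildtype and 9 and 12 in deleted cells. Its log2 fold change was 0.48 ± 0.43 (edgeR adjusted p = 0.413), with groups that overlapped narrowly, wildtype 3 at 0.0986 CPM being above deleted 1 at 0.0962. Hoxd8, a trunk gene, had 18, 7 and 12 counts against 12 and 10, with wildtype 1 the highest of all, and a log2 fold change of 0.46 ± 0.52 (edgeR adjusted p = 0.519). With single libraries left out, Hoxd8 ranged from 0.12 (without wildtype 3) to 0.98 (without wildtype 1) and Hoxa11 from 0.27 (without wildtype 1) to 0.78 (without wildtype 3). The median over the 11 genes was 0.23, with 8 positive and 3 negative values, beside a median of 0.07 over tested symbols. Counting error at the lowest counts was 44.7% for Hoxb13 and 40.8% for Hoxa11.

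The 27 members under the filter were read as counts. Hoxb4, a gene of blood stem cells and the neck, had 9, 8 and 11 counts in wildtype and 5 and 6 in deleted cells. Hoxd9 had 6, 5 and 5 against 4 and 3. Hoxc10, a lumbar gene, had 5 in each wildtype library and 7 and 9 in deleted cells, or 0.0399, 0.0435 and 0.0235 against 0.0748 and 0.0908 CPM. By CPM, deleted libraries were above all wildtype ones in Hoxc10, Hoxc11 and Hoxd12 and below all of them in Hoxc12. Hoxd12 had only 1, 1 and 2 counts in wildtype and 1 in each deleted library. Its separation by CPM therefore comes from library totals and is not read as a difference. Groups did not overlap in 63.5% of all tested genes, a share that leaves out genes under the filter. In a fit with no filter Hoxc10 had a log2 fold change of 1.26 ± 0.56 and did not pass (edgeR adjusted p = 0.123). Hoxc12, beside Hoxc13, had 7, 10 and 11 against 2 and 5 counts, and Hoxc11 had 0, 0 and 2 against 2 and 3. In the fit with no filter neither passed, with log2 fold changes of −0.79 ± 0.64 for Hoxc12 and 2.32 ± 1.23 for Hoxc11 (edgeR adjusted p = 0.416 and 0.198). Hoxd11 had 1, 11 and 13 counts in wildtype and 7 and 8 in deleted cells, both within the wildtype range. Hoxa4 had 3, 4 and 8 against 1 and 6, and Hoxa3 0, 8 and 9 against 6 and 6. With no filter, 37 Hox genes could be fitted, and Hoxc13 remained the gene past the threshold (edgeR adjusted p = 0.0235). Hoxa2, Hoxa5, Hoxa9, Hoxb2, Hoxb3, Hoxb5, Hoxb6, Hoxb8, Hoxc5, Hoxc6, Hoxc8, Hoxc9, Hoxd3, Hoxd4, Hoxd10 and Hoxd12 each had 10 or fewer counts in any library.

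Summed over its genes, the Hoxc cluster on chromosome 15 had 0.764 ± 0.0359 CPM in wildtype (SD, n = 3) and 1.12 ± 0.0936 CPM in deleted cells (SD, n = 2), most of it Hoxc13. The Hoxd cluster on chromosome 2 had 1.54 ± 0.0582 and 1.54 ± 0.0401 CPM. The Hoxb cluster on chromosome 11 had 0.493 ± 0.00445 and 0.485 ± 0.156 CPM. These sums are given without a test.

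Over the lists of genes that act with, upon or beside Hox genes, 12 of 30 tested genes passed. Beside this, 31.8% of tested symbols passed (18.9% higher and 12.9% lower) and 39.5% of all tested genes (19.9% higher and 19.6% lower). The difference between these shares was not tested, so the counts below are a description of single genes. Of 5 tested TALE cofactors, 2 were higher, 1 lower and 2 not past the threshold. Pbx4, a DNA-binding partner of HOX proteins, rose by a log2 fold change of 0.75 ± 0.14 (edgeR adjusted p = 0.00406), with 1.22 ± 0.156 CPM in wildtype (SD, n = 3) and 2.04 ± 0.0122 CPM in deleted cells (SD, n = 2). Meis1, a cofactor of posterior HOX proteins, rose by a log2 fold change of 0.72 ± 0.22 (edgeR adjusted p = 0.0307), and Pknox2 fell by 1.20 on the log2 scale (edgeR adjusted p = 0.000263). The Meis1 call was lost when wildtype 1, wildtype 2, deleted 1 or deleted 2 was left out (edgeR adjusted p = 0.0724 to 0.135), with DESeq2 (0.0726) and in its most counted bin (log2 fold change 0.14; edgeR adjusted p = 0.814). Among 9 tested Cdx and axial genes, which lie upstream of Hox genes in the posterior embryo, Tbx6 and Sp5 were higher, Cdx2 and Nkx1-2 lower and 5 not past the threshold. Cdx2, a direct activator of central Hox genes, had a log2 fold change of −1.32 ± 0.43, a call lost without any single library other than deleted 2, with DESeq2, in the most counted bin and with the replicate block (adjusted p = 0.0509 to 0.246). Its value was −0.75 without deleted 1 and −2.35 without deleted 2. Tbx6 met the filter only through the deleted libraries, where it is high. Its call is therefore no support, though it is among the 12 of 30. Leaving out deleted 1 or deleted 2 ended the Nkx1-2 call, at log2 fold changes of −0.96 and −0.94.

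Of the retinoic acid genes, 8 of 20 had a symbol row and 4 were tested. Dhrs3, an enzyme gene that limits retinoic acid, fell, with 1.27 ± 0.0527 CPM in wildtype (SD, n = 3) and 0.643 ± 0.0178 CPM in deleted cells (SD, n = 2). On the log2 scale this came to −0.97 ± 0.14 (edgeR adjusted p = 0.00139), a call lost in its most counted bin alone (edgeR adjusted p = 0.0861). Aldh1a2, which makes retinoic acid, had −0.05 ± 0.13 (edgeR adjusted p = 0.798), and Rxrg and Stra6 did not pass either. Cyp26a1, a retinoic acid-degrading enzyme gene known to respond to it, had 1, 8 and 11 counts in wildtype and 11 and 8 in deleted cells. Few of the 30 Polycomb genes listed had a symbol row. Cbx8, a chromodomain subunit of PRC1, had a log2 fold change of 0.62 ± 0.18 and Phc3, a polyhomeotic subunit, −0.49 ± 0.15 (edgeR adjusted p = 0.0281 and 0.0362). Neither call held without deleted 2 (edgeR adjusted p = 0.242 and 0.112). The Phc3 call also ended without deleted 1 (0.189). The Cbx8 call also ended without wildtype 1 or 2 (0.0597 and 0.0513) and in the most counted bin (0.316). No trithorax gene of 15 had a symbol row.

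**Figure D4:**
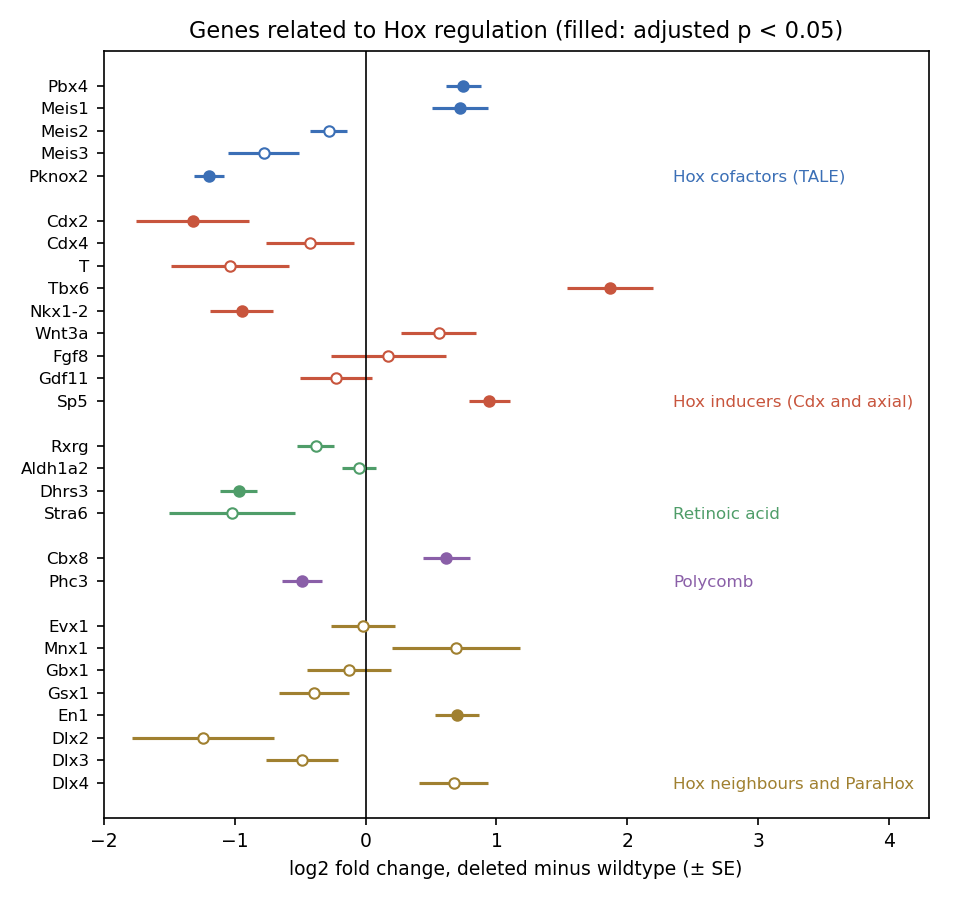
Log2 fold change (deleted minus wildtype) with SE of genes from the lists on Hox cofactors, inducers, retinoic acid, Polycomb and neighbouring or ParaHox genes. Filled points passed the threshold, and filled points lie on both sides of 0 among the cofactors, the inducers and the Polycomb genes.

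Of the noncoding RNAs of the clusters, 13 of 16 had a row and 8 of these were at 0 in all libraries, among them the rows of Mir10a, Mir10b and Mir196b. As the libraries are of polyadenylated RNA, a 0 in a microRNA row is no measure of the mature microRNA. Hotair, of the Hoxc cluster, had 0, 0 and 1 counts in wildtype and 1 in each deleted library. Of 8 tested neighbours and ParaHox genes, En1, a midbrain homeobox gene, was higher and 7 did not pass. En1 had 0.494 ± 0.0614 CPM in wildtype (SD, n = 3) and 0.808 ± 0.0551 CPM in deleted cells (SD, n = 2). On the log2 scale the difference was 0.70 ± 0.17 (edgeR adjusted p = 0.0139). Its call ended with deleted 1 or deleted 2 left out (edgeR adjusted p = 0.0569 and 0.0953) and in the most counted bin (0.148). Evx1, next to Hoxa13, had 32, 29 and 51 counts against 26 and 21 and a log2 fold change of −0.02 ± 0.24 (edgeR adjusted p = 0.974), and Evx2, next to Hoxd13, was at 0.

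Markers of other cells were read beside the rise of Hoxc13. Of 15 fibroblast markers 13 had a row and none was at 0 in all libraries. Among 7 tested, 5 were higher, Col1a2, Col5a2, Col6a1, Col6a2 and Pdgfrb, and none was lower, beside 18.9% of tested symbols called higher and 12.9% called lower. Col6a1 met the filter only through the deleted libraries, where it is high, so its call is no support. Col6a2, outside the 4 genes named by p, was not refitted. Leaving out single libraries ended the other 4 calls: Col1a2 without deleted 1, Col6a1 and Pdgfrb without deleted 2, and Col5a2 without any library but wildtype 3 (edgeR adjusted p = 0.0534 to 0.172). The 13 rows summed to 9.17 to 12.7 CPM in wildtype and 13.5 and 13.7 CPM in deleted cells. The defining markers Dcn, Lum and Postn had 0 to 3 counts in every library, and Prrx1 had 1 to 5. Against the same shares of symbols, 1 of 6 tested mesoderm markers, Tbx6, was higher. Tbx6 too met the filter only through the deleted libraries, where it is high, so its call is no support. Neither of 2 neural markers passed, and 3 of 8 primitive endoderm markers were lower. The part of any of these cells in the Hoxc13 value was not tested.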

How the data were processed

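The authors deposited raw read counts per exon bin for 5 libraries of polyadenylated RNA, in a table of 243771 bins, per the file headers. Per the submitters' processing notes, the tools and builds were STAR and mm9. Annotation, counting settings and strand: not given in the sources used here. Bin counts were summed per symbol or assembly ID, leaving 56 spike-in names out of library sizes and tests. Reads over several bins may count more than once. Libraries held 93574609 to 213042746 counts, so depth limits low genes, and counting errors cover counting only.

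Genes were kept by filterByExpr (minimum count 10, here 0.0871 CPM in at least 2 libraries), scaled by TMM and tested with edgeR 4.0.16 (glmQLFit, R 4.3.3) on all 16259 genes, wildtype against deleted. SE is the size of the log2 fold change divided by the square root of F, and CPM are unscaled. The Hox genes and the gene lists were chosen with earlier results of these data known. Hox genes were named, and of each list up to 4 genes past the threshold by p, besides a few named for their role after their values were seen. Groups follow the labels' titles. Exon lengths, chromosomes and overlaps come from GENCODE vM21 (GRCm38) and promoters from RefSeq (GRCm38.p6), builds other than the authors'. Alternatives changed the normalization, the filter, the test (DESeq2 1.42.0, limma-voom of limma 3.58.1), the bin used, the libraries and the replicate block. The fit was tested on simulated data. Results of some genes are not reported here, though they are part of the counts and fits.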

Additional observations from a re-analysis of the deposited data

How the results depend on the processing

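Of 139 alternative values of the 11 tested Hox genes, 128 kept their sign and their side of the threshold, 8 changed sign without passing and 3, all of Hoxc13, were no longer past it. The Hox count of higher genes was 1, and 0 to 1 when single libraries were left out. The count of lower genes was 0 in every setting run, while the fit gave 1 Hox gene at unadjusted p under 0.05, Hoxc13, also with DESeq2. Hoxa7 had log2 fold changes of −0.0032 with no filter, −0.0030 with DESeq2, −0.14 with the replicate block and −0.15 to 0.16 when single libraries were left out. With single libraries left out, Hoxb7 ranged from −0.021 to 0.70, Hoxc4 from −0.079 to 0.46 and Hoxd1 from −0.015 to 0.39, each negative without deleted 2 only. Detected Hox genes numbered 14 at 3 counts in every library and 8 at 10 counts. Genes called numbered 6421 in all, and 3207 to 8225 when single libraries were left out, with 3207 without deleted 1 and 3777 without deleted 2. These omissions leave 1 deleted library, whose spread is taken to equal that of wildtype. In the lists related to Hox genes 12 were called, 7 in the most counted bin and 6 to 14 when single libraries were left out. The labels do not pair libraries of the same number, and the difference of wildtype 1 and 2 correlated with that of deleted 1 and 2 across genes at −0.0015. With the replicate block 8250 genes were called, and Hoxc13 had a log2 fold change of 0.81 (edgeR adjusted p = 0.00801). No deleted 3 was analysed, so wildtype 3 stands alone in its block and does not bear on the comparison. This setting therefore nearly repeats the fit without wildtype 3 (8225 genes called) and is no separate support. Depth limits the genes of few counts: the SE was 0.52 for Hoxd8 and 0.13 for Hoxd13.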
